A study of Mus musculus with 6 samples.

Results

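The DNA crosslink repair genes examined here were 34 named genes of the Fanconi anaemia, homologous recombination, nucleotide excision and translesion repair pathways. They were picked by gene name out of the 54532 genes in the table, with earlier results of these data known. All 34 were present and had a mean level high enough to be tested. The RNA came from mouse T cells that had been kept with ID8 cells, a mouse ovarian cancer line of C57BL/6 origin, in the same culture. In the cisplatin group (3 libraries) the ID8 cells had been treated beforehand with 40 µM cisplatin, and in the control group (3 libraries) they had been given PBS. In both groups the T cells were isolated from the spleens of C57BL/6 mice with a pan T-cell kit, grown with IL-2 and activated with beads against CD3 and CD28 before the co-culture, so both groups held activated cells. The drug was given to the ID8 cells and not to the T cells. The study's methods speak of biological replicates, but neither they nor the labels say whether the libraries of a group came from separate mice or cultures, so the p-values may measure only the spread between these libraries.

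Cisplatin binds purine bases of DNA and can join bases of the same strand or of opposite strands. Same-strand adducts are cut out mainly by nucleotide excision repair. A crosslink between strands stops a replication fork, where the Fanconi core complex ubiquitinates the pair FANCD2 and FANCI, nucleases then unhook the crosslink, translesion polymerases copy past the remnant and homologous recombination restores the broken sister. Many of these genes are expressed mostly in dividing cells, and activated T cells divide.

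Each library held between 30606569 and 32169496 reads on genes, rebuilt from the deposited FPKM (fragments per kilobase of gene length scaled to sequencing depth) and the gene lengths. The total by which the authors had divided exceeded the reads on genes in the cisplatin group, at a ratio of 1.04, and fell short of them in the control group, at 0.980. The RNA was not from T cells alone. Of the ID8 markers tested (keratins and other epithelial and mesothelial genes), 24 of 25 were at least 2-fold lower in the cisplatin group, and the summed level of the whole list of 28 was 300.5 to 312 FPKM there against 1888 to 1982 FPKM in the controls. All 24 T-cell identity genes were higher, with a summed level of 3424 to 3505 FPKM against 2147 to 2285 FPKM, and so were all 10 B-cell markers, with 3607 to 3684 FPKM against 1677 to 1760 FPKM. Most of the B-cell sum was the antibody gene Ighm, with a mean of 3220.5 FPKM against 1432.7 FPKM. The median log2 fold change was 0.60 for the T-cell list and 0.60 for the B-cell list. Of the myeloid markers, 8 of 11 were higher and 2 lower, and the 13 on the list summed to 161 to 184 FPKM against 125 to 131 FPKM. Among the higher ones, Adgre1, Fcgr1 and C1qa had control means of 0.288, 0.293 and 0.265 FPKM. These lay below the filter of 0.5 FPKM, which the 3 genes passed only through the cisplatin libraries, so their rise was partly built into the selection. S100a8 and S100a9 were too low to be tested. No marker of these lists was at 0 in every library. The part of this shift in the results below was not tested. For any gene given here, fewer cells of a type and less RNA per cell cannot be told apart.

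Sequences of the genes were taken from RefSeq promoter windows (build GRCm38.p6, from 250 bases before to 50 bases after a start site), which were held for 28 of the 34 genes. Fancd2, Xrcc2, Ercc3, Xpc, Ddb2 and Rev3l were not in that table. E2F proteins switch on many genes of the S phase, so the windows were searched on both strands for the E2F-type letters TTCCCGC or TTTCGCGC or TTTGGCGC. Of the 28 genes, 8 held such a match (28.6%), against 5.33% of all 32851 windows and 11.2% of the 10042 tested genes with a window. The median GC content was 58.7% in the members' windows, 52.7% in all windows and 60.3% in those of tested genes. These stretches are shown because the 8 genes include a gene that rose and a gene that fell. Each runs 5′ to 3′ on the strand of the gene, with the E2F-type letters, or their reverse complement, in capitals and 20 bases on either side. Distances are from the RefSeq start. For Fancg and Fanci that start is 205 and 409 bases from the gene start in the deposited coordinates, by which both matches lie inside the gene.
Fancb, chrX:164980400-164980446, plus strand, match 172 bases before the start: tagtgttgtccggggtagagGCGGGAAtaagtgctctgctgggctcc
Rad51c, chr11:87404933-87404979, minus strand, 5 bases before the start: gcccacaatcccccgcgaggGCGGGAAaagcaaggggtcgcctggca
Rad51c, chr11:87404468-87404515, minus strand, 12 bases after another RefSeq start: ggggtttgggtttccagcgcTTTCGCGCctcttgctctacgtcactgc
Fancg, chr4:43010326-43010372, minus strand, 51 bases before the start: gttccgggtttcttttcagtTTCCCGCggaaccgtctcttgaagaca
Fanci, chr7:79392336-79392382, plus strand, 19 bases after the start: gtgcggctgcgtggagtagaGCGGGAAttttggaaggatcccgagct
Fancm, chr12:65075529-65075575, plus strand, 54 bases before the start: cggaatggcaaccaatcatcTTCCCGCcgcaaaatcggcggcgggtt
Ube2t, chr1:134962386-134962432, plus strand, 159 bases before the start: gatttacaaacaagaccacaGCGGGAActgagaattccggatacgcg
Brca2, chr5:150522433-150522479, plus strand, 168 bases before the start: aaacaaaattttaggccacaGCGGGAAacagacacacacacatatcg
Ercc5, chr1:44147655-44147701, plus strand, 69 bases before the start: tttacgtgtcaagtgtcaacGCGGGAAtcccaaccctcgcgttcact
Of these 8 genes, Fancb was higher in the cisplatin group, Rad51c was lower and the other 6 did not pass the test, as described with each gene below. The letters CCAAT were found in 17 of the 28 genes (60.7%), against 42.5% of tested genes and 37.4% of all windows. The NRF1 letters GCGCATGCG were found in Ercc6, Fancm, Polh and Xpa (14.3%), against 3.99% of tested genes and 1.75% of all windows. The cell-cycle letters TTTGAA were in Ercc5 (3.57%), against 14.6% of tested genes and 17.9% of all windows. A match is a run of letters and not a measured binding site.

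On the FPKM as deposited, 9 of the 34 repair genes were higher in the cisplatin group, 3 were lower and 22 did not pass the test (limma on log2 of FPKM plus 0.1, Benjamini-Hochberg adjusted p under 0.05 over 15874 tested genes). Fancb, Fancl, Slx4, Ercc1, Ercc3, Ercc4, Ercc6, Ddb2 and Rev3l rose, and Fance, Rad51c and Ddb1 fell. Of all tested genes, 27.5% were higher and 29.0% lower by the same rule, beside 26.5% and 8.82% of the repair genes. No repair gene reached 2-fold with that adjusted p in limma, in either direction, whereas 4.11% of all tested genes did so upwards and 12.8% downwards. At an unadjusted p under 0.05, 13 repair genes were higher and 5 lower, and voom on the rebuilt reads also called 0 at 2-fold. The 3 cisplatin libraries lay wholly above or wholly below the 3 controls for 23 of the 34 genes (67.6%), 16 of them higher and 7 lower, beside 64.2% of all tested genes. The median log2 fold change of the 34 genes was 0.19, against 0.03 for all tested genes. The counts of higher and lower genes depended on how the libraries were scaled to each other. Centring the libraries on the T-cell identity genes lowers the log2 fold change of every gene by the same amount (a shift of −0.58), which put the median of all genes at −0.56. After it, 0 repair genes were higher in limma (0 also at an unadjusted p under 0.05) and 24 were lower. Of all 15874 tested genes, 732 were higher and 10575 lower after the same centring.

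**Figure D1:**
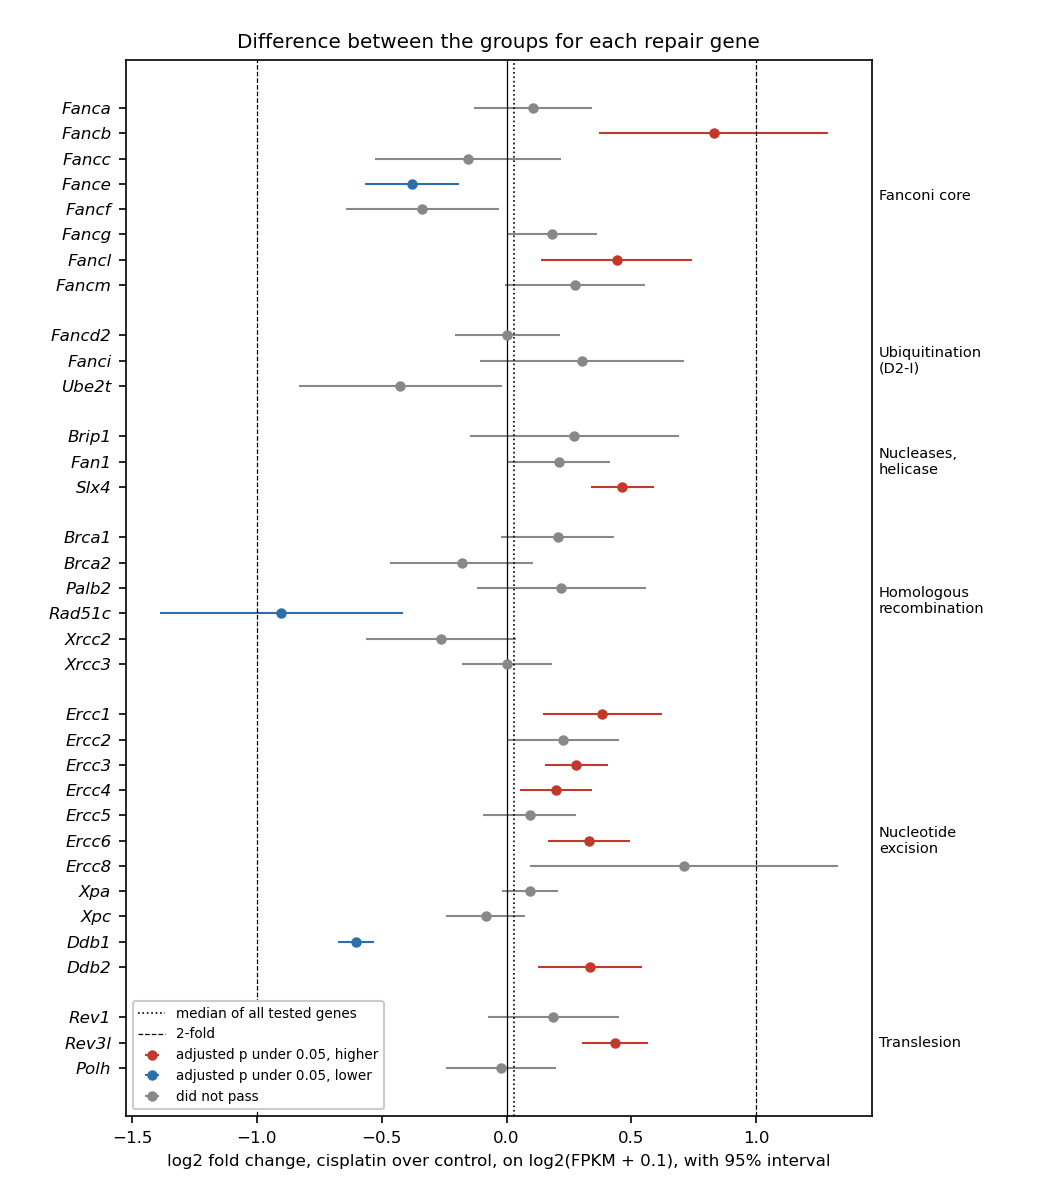
Log2 fold change (cisplatin over control, on log2 of FPKM plus 0.1, horizontal axis) of each of the 34 repair genes, grouped by role, with 95% intervals from limma; red and blue points passed adjusted p under 0.05 and grey points did not. On the deposited FPKM, Fancb had the highest value at 0.83 and Rad51c the lowest at −0.90, and all points lay inside the 2-fold lines on this scaling; centring on T-cell genes would move every point by −0.58.

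**Figure D2:**
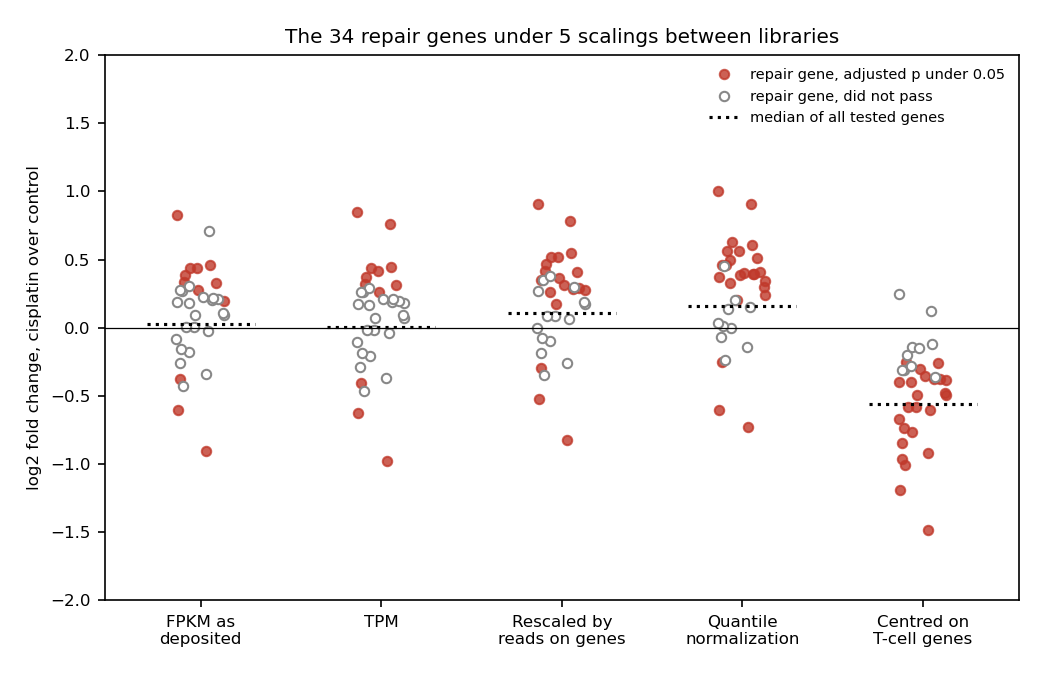
Log2 fold change (cisplatin over control, vertical axis) of the 34 repair genes under 5 scalings between libraries, each point a gene (filled if adjusted p was under 0.05) and the dotted bar the median of all tested genes. The number of repair genes higher was 9 as deposited and as TPM, 16 after rescaling by reads on genes, 21 after quantile normalization and 0 after centring on T-cell genes. Of all 15874 tested genes, 4360 were higher as deposited, 5305 after rescaling, 5884 after quantile normalization and 732 after centring. As TPM, 4117 of 20563 were higher. The median of all tested genes moved with the scaling, from 0.03 as deposited to 0.16 after quantile normalization and −0.56 after centring.

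In the control group the levels ran from 0.491 FPKM for Ercc8 to 159 FPKM for Ddb1, with a median of 3.57 FPKM against 5.82 FPKM for all tested genes. Ddb1 stood apart, in the 98.6th percentile of control levels. Behind it came Ercc3 at 14.2 ± 0.788 FPKM, Xpa at 12.7 ± 0.581 FPKM, Xpc at 9.67 ± 0.297 FPKM and Fance at 9.52 ± 0.442 FPKM (SD, n = 3 for all means here). Xpc and Fance did not differ beyond their spread. At the low end Fancb, Palb2 and Fancc had 1.04 ± 0.115, 1.05 ± 0.0532 and 1.09 ± 0.0398 FPKM and could not be ordered. The median level was 6.59 FPKM for the 11 nucleotide excision genes, 5.26 FPKM for the 3 translesion genes, 2.15 FPKM for the 14 Fanconi genes and 1.97 FPKM for the 6 homologous recombination genes. The reads behind a gene ranged from 86 to 20313 per library, and the standard error of the log2 fold change from 0.03 for Ddb1 to 0.26 for Ercc8, so the rarer genes were measured less precisely.

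**Figure D3:**
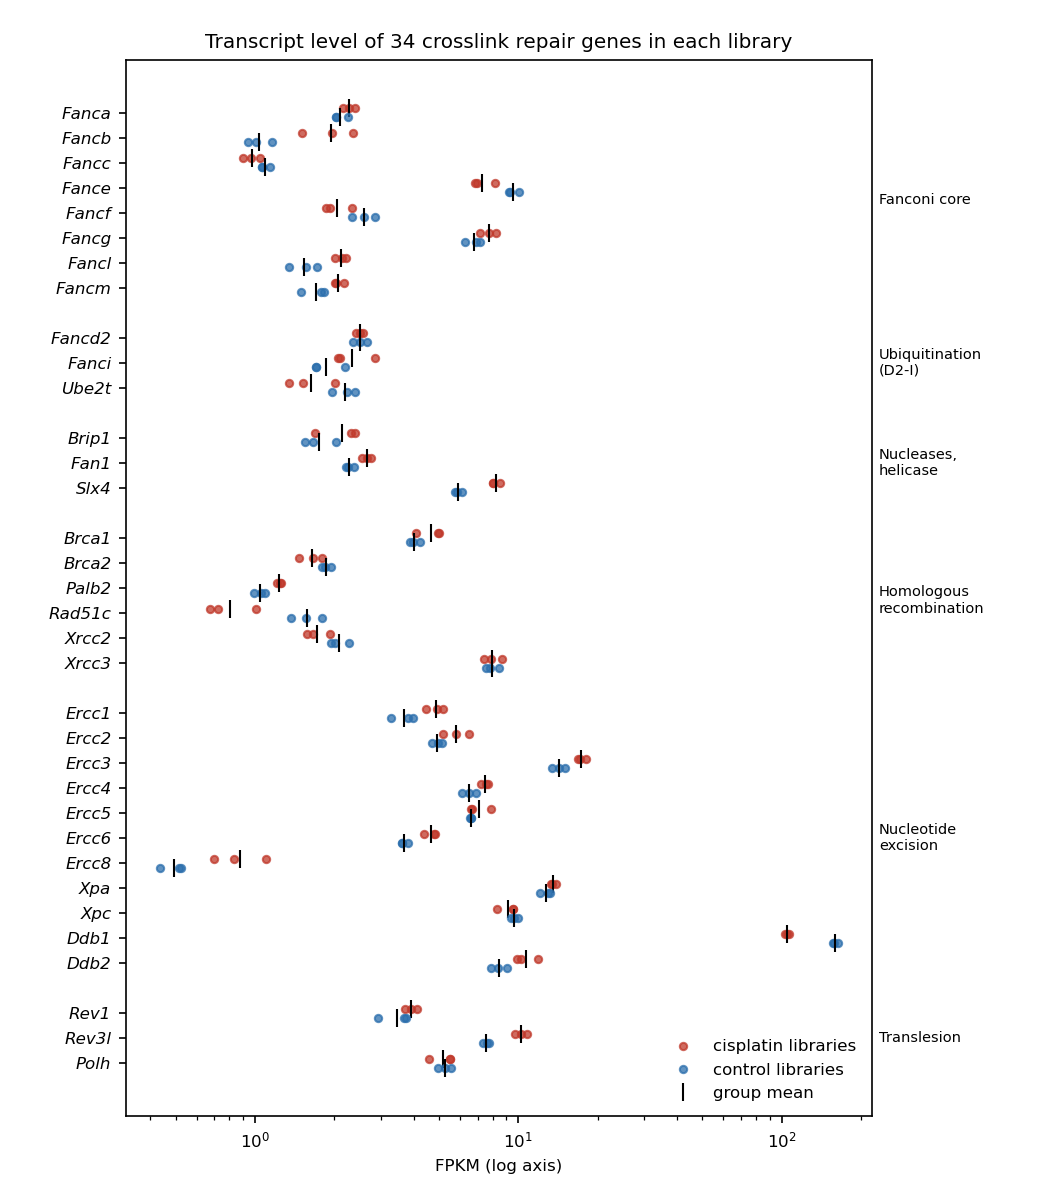
Level in FPKM (log axis) of the 34 repair genes in each of the 3 cisplatin and 3 control libraries, each point a library and each tick a group mean, by role. Ddb1 lies far to the right, at 103 to 106 FPKM in the cisplatin and 156 to 163 FPKM in the control libraries, and most other genes lie between 1 and 20 FPKM.

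The Fanconi core complex is the ubiquitin ligase that marks FANCD2 and FANCI. Of its 8 measured genes, Fancb and Fancl rose and Fance fell on the deposited FPKM, and 5 did not pass, with a median log2 fold change of 0.14. The 2 that rose belong to the catalytic module, where FANCL is the ligase subunit and FANCB a scaffold.

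Fancb (ENSMUSG00000047757, chrX:164980592-164997272, plus strand in the coordinates of the table) had 1.97, 2.35 and 1.51 FPKM in cisplatin replicates 1 to 3 and 1.005, 1.16 and 0.939 FPKM in control replicates 1 to 3. The lowest cisplatin library lay above the highest control. The log2 fold change was 0.83 ± 0.19 (SE), the largest rise among the 34 genes, with limma adjusted p = 0.0093. It rested on 86 to 232 reads per library, and was 0.25 (adjusted p = 0.29) after centring on T-cell genes.

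Fancl (ENSMUSG00000004018, chr11:26386135-26471876, plus strand) had 2.21, 2.01 and 2.14 FPKM in the cisplatin libraries and 1.56, 1.35 and 1.72 FPKM in the controls, without overlap. Its log2 fold change was 0.44 ± 0.13 (limma adjusted p = 0.022, −0.14 after centring on T-cell genes). Of its exon bases, 13.7% are shared with Vrk2 on the other strand, and the sources used here do not say whether strand was used in counting. Fancl no longer passed without cisplatin replicate 1 or 3 or control replicate 1 or 2, where its log2 fold change was 0.35 to 0.45 (limma adjusted p = 0.050 to 0.068).

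Fance (ENSMUSG00000007570, chr17:28313519-28326572, plus strand), which bridges the core complex to FANCD2, had 6.94, 8.12 and 6.86 FPKM in the cisplatin libraries and 9.33, 10.02 and 9.20 FPKM in the controls. Every cisplatin library lay below every control. Its log2 fold change was −0.38 ± 0.08 (limma adjusted p = 0.0057), and it fell under every setting tried.

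Fancf and Fancc, which with FANCE form the substrate-binding side of the core complex, had values on the same side as Fance but did not pass. Fancf had 1.86, 1.93 and 2.34 FPKM against 2.34, 2.86 and 2.60 FPKM (log2 fold change −0.34, 95% interval −0.64 to −0.03, limma adjusted p = 0.061). Gas2 on the other strand, with up to 190 reads per library, shares 15% of the exon bases of Fancf. Fancc had 0.968, 1.04 and 0.901 FPKM against 1.14, 1.07 and 1.07 FPKM (−0.15, interval −0.53 to 0.22). Fanca and Fancg, members of the module that also holds FAAP20, had log2 fold changes of 0.11 (−0.13 to 0.34) and 0.18 (0.00 to 0.36). Fancm, the translocase that brings the complex to DNA, had 0.27 (−0.01 to 0.56). The groups did not overlap for Fancc, Fancf, Fancg and Fancm, and overlapped for Fanca. Without cisplatin replicate 3, Fancf passed at −0.43 (adjusted p = 0.032) and Fancg at 0.23 (adjusted p = 0.049).

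Of the 3 genes of the ubiquitination step, 0 passed the test in limma and 1, Ube2t, had an unadjusted p under 0.05, whereas Fanci and Ube2t passed in voom (adjusted p = 0.018 and 0.044). Fancd2 was almost level, with 2.43, 2.51 and 2.57 FPKM against 2.501, 2.35 and 2.65 FPKM and a log2 fold change of 0.00 (interval −0.21 to 0.21). Its partner Fanci had 2.06, 2.10 and 2.86 FPKM against 1.71, 2.19 and 1.70 FPKM (0.30, interval −0.11 to 0.71), with cisplatin replicate 3 the highest of the 6 libraries. Polg on the other strand, with up to 2925 reads per library, shares 16% of the exon bases of Fanci. Ube2t, the ubiquitin-conjugating enzyme that works with FANCL, had 1.52, 2.02 and 1.35 FPKM against 2.39, 2.23 and 1.97 FPKM (−0.43, interval −0.83 to −0.02, limma adjusted p = 0.072). Cisplatin replicate 2 overlapped the controls for Ube2t, and without it the value was −0.58 (limma adjusted p = 0.020).

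Slx4 was the 1 gene of the 3 effectors that passed. It (ENSMUSG00000039738, chr16:3979105-4003770, minus strand) is the scaffold that holds the nucleases cutting at a crosslink, and had 8.53, 8.03 and 8.05 FPKM in the cisplatin libraries and 5.75, 6.14 and 5.87 FPKM in the controls. The groups were well separated, with 1321 to 2113 reads per library. The log2 fold change was 0.46 ± 0.05 (limma adjusted p = 0.00035, −0.12 after centring on T-cell genes). Fan1, a nuclease recruited by ubiquitinated FANCD2, had 2.66, 2.55 and 2.75 FPKM against 2.21, 2.38 and 2.25 FPKM without overlap but did not pass (0.21, interval 0.01 to 0.41, limma adjusted p = 0.075). Brip1, the helicase also called FANCJ, had 0.27 (interval −0.15 to 0.69) with overlapping groups.

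Among the 6 homologous recombination genes, Rad51c fell and 5 did not pass, with a median log2 fold change of −0.09. Rad51c (ENSMUSG00000007646, chr11:87376645-87404954, minus strand), which forms a complex with XRCC3, had 0.726, 1.005 and 0.676 FPKM in the cisplatin libraries and 1.79, 1.37 and 1.56 FPKM in the controls. The highest cisplatin library lay below the lowest control. The log2 fold change was −0.90 ± 0.20 (limma adjusted p = 0.0084), the largest fall of the 34 genes, on 96 to 236 reads per library.

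Xrcc3, the partner of Rad51c, had 8.66, 7.38 and 7.84 FPKM against 7.57, 7.82 and 8.43 FPKM, a log2 fold change of 0.00 (interval −0.18 to 0.18). Xrcc2, which also acts in strand exchange, had 1.57, 1.66 and 1.92 FPKM against 2.28, 1.94 and 2.01 FPKM (−0.26, interval −0.56 to 0.04), without overlap and without passing. Brca1, which promotes end resection and recruits PALB2, had 4.94, 4.09 and 4.997 FPKM against 4.22, 3.89 and 3.97 FPKM (0.20, interval −0.02 to 0.43). Palb2, which links BRCA1 to BRCA2, had 1.21, 1.25 and 1.24 FPKM against 1.06, 1.09 and 0.990 FPKM (0.22, interval −0.12 to 0.56). Brca2, which acts with PALB2 in strand exchange, had 1.66, 1.47 and 1.80 FPKM against 1.95, 1.80 and 1.85 FPKM (−0.18, interval −0.47 to 0.11). None of these 3 passed, with limma adjusted p = 0.11, 0.23 and 0.25, and the groups overlapped for Brca1 alone. Brca1 passed when cisplatin replicate 2 was left out (0.30, adjusted p = 0.020).

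Of the 11 nucleotide excision genes, 5 rose, 1 fell and 5 did not pass on the deposited FPKM (median log2 fold change 0.23), so 54.5% changed, a share near the 56.5% of all tested genes, and after centring on T-cell genes the 5 that rose had values from −0.20 to −0.39. The pathway has damage sensors, the TFIIH helicases, and the nucleases that cut on either side of the lesion.

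The damage-sensing pair had opposite signs as deposited, though both were below 0 after centring on T-cell genes. Ddb1 (ENSMUSG00000024740, chr19:10605625-10629813, plus strand), the adaptor of the CUL4 ubiquitin ligases, which serves many substrate receptors beside repair, had 105, 103 and 106 FPKM in the cisplatin libraries and 156, 163 and 158 FPKM in the controls. These values lay far apart for their spread of 1.81 and 3.66 FPKM (SD). The log2 fold change was −0.60 ± 0.03 (limma adjusted p = 6.5e-06). Ddb2 (ENSMUSG00000002109, chr2:91211572-91236982, minus strand), the DNA-binding partner of DDB1, had 9.88, 10.3 and 11.9 FPKM against 9.05, 8.40 and 7.85 FPKM, without overlap. Its log2 fold change was 0.34 ± 0.09 (limma adjusted p = 0.015, −0.25 after centring on T-cell genes). Of its exon bases, 23.8% are shared with Acp2 on the other strand. Xpc, the sensor of the genome-wide branch, had 8.31, 9.53 and 9.55 FPKM against 9.39, 9.63 and 9.98 FPKM (−0.08, interval −0.24 to 0.08).

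Both genes of the transcription-coupled branch had higher means in the cisplatin group as deposited. Ercc6 (ENSMUSG00000054051, chr14:32513521-32580990, plus strand), the CSB remodeller of stalled RNA polymerase, had 4.37, 4.84 and 4.77 FPKM against 3.80, 3.63 and 3.63 FPKM and rose by a log2 fold change of 0.33 ± 0.07 (limma adjusted p = 0.0059, −0.26 after centring on T-cell genes). Ercc8, its CSA partner, had 0.831, 1.10 and 0.701 FPKM against 0.513, 0.436 and 0.523 FPKM. The groups did not overlap, but with 100 to 280 reads per library the interval was wide (0.71, 0.10 to 1.33, limma adjusted p = 0.052). The control mean of Ercc8, 0.491 FPKM, lay below the 0.5 FPKM filter, so it was tested only through its cisplatin libraries. Its higher value is therefore partly built into that selection. Without the filter its limma adjusted p was 0.1.

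Ercc3, the XPB translocase of TFIIH, rose from 14.2, 13.5 and 15.0 FPKM in the controls to 17.1, 18.0 and 16.8 FPKM in the cisplatin libraries, a log2 fold change of 0.28 ± 0.05 (limma adjusted p = 0.0039, −0.30 after centring on T-cell genes). Ercc2, the XPD helicase of the same complex, had 5.18, 6.49 and 5.78 FPKM against 5.14, 4.97 and 4.70 FPKM (0.23, interval 0.01 to 0.45, limma adjusted p = 0.074). It passed when cisplatin replicate 1 was left out (0.31, adjusted p = 0.024). Of its exon bases, 24.6% and 17.8% are shared with Gm26852 and Klc3 on the other strand. Xpa, which checks the damage before cutting, had 0.09 (interval −0.02 to 0.21), and neither gene passed although the groups did not overlap.

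The nuclease ERCC1-XPF cuts 5′ of a lesion and also acts on crosslinks with SLX4, and both of its genes rose as deposited. Ercc1 (ENSMUSG00000003549, chr7:19344778-19356524, plus strand) had 4.45, 4.90 and 5.20 FPKM against 3.82, 3.99 and 3.28 FPKM, a log2 fold change of 0.38 ± 0.10 (limma adjusted p = 0.015, −0.20 after centring on T-cell genes). Ercc4 (ENSMUSG00000022545, chr16:13109684-13150617, plus strand), which encodes the catalytic XPF subunit, had 7.67, 7.24 and 7.51 FPKM against 6.51, 6.89 and 6.12 FPKM, a log2 fold change of 0.20 ± 0.06 (limma adjusted p = 0.029, −0.39 after centring). The groups overlapped for neither. Ercc1 no longer passed without cisplatin replicate 3 (0.33, limma adjusted p = 0.052). Ercc4 no longer passed in 7 of the alternative settings, among them the replicate block (limma adjusted p = 0.065). They also included leaving out cisplatin replicate 1 or 3 or control replicate 1 or 3 (0.16 to 0.20, limma adjusted p = 0.067 to 0.083). Ercc5, the XPG nuclease that cuts on the other side, had 7.90, 6.61 and 6.68 FPKM against 6.64, 6.61 and 6.54 FPKM (0.09, interval −0.09 to 0.28), with cisplatin replicate 1 alone standing high.

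Of the 3 translesion genes, Rev3l rose as deposited and Rev1 and Polh did not pass. Rev3l (ENSMUSG00000019841, chr10:39732118-39875211, plus strand), the catalytic subunit of polymerase zeta, had 10.3, 9.68 and 10.8 FPKM against 7.58, 7.73 and 7.32 FPKM, with 2988 to 4635 reads per library. The log2 fold change was 0.43 ± 0.05 (limma adjusted p = 0.00056, −0.15 after centring on T-cell genes). Rev1, the scaffold of translesion polymerases, had 3.72, 3.92 and 4.14 FPKM against 3.74, 2.94 and 3.67 FPKM (0.19, interval −0.08 to 0.45). Of its exon bases, 26.6% are shared with Eif5b on the other strand. Polh, polymerase eta, had 4.58, 5.51 and 5.49 FPKM against 4.94, 5.28 and 5.55 FPKM (−0.02, interval −0.24 to 0.20).

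Genes whose products work together were also compared as log2 ratios of FPKM within each library, which do not depend on scaling between libraries. These 8 pairs were chosen with the values known and are given as a description. Ddb2 over Ddb1 was −3.41, −3.32 and −3.16 in the cisplatin libraries and −4.11, −4.28 and −4.33 in the controls, so the ratio was higher by 0.94 on the log2 scale. Rad51c over Xrcc3 was −3.33 ± 0.393 against −2.34 ± 0.232, lower by a difference of −0.99. Ube2t over Fancl was −0.40 ± 0.356 against 0.51 ± 0.283, and Brca2 over Palb2 was 0.41 ± 0.158 against 0.83 ± 0.103. Ercc8 over Ercc6 was −2.43 ± 0.318 against −2.91 ± 0.133. The groups overlapped for Ercc1 over Ercc4, Fancd2 over Fanci and Fancb over Fancl, with differences of 0.19, −0.31 and 0.42.

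**Figure D4:**
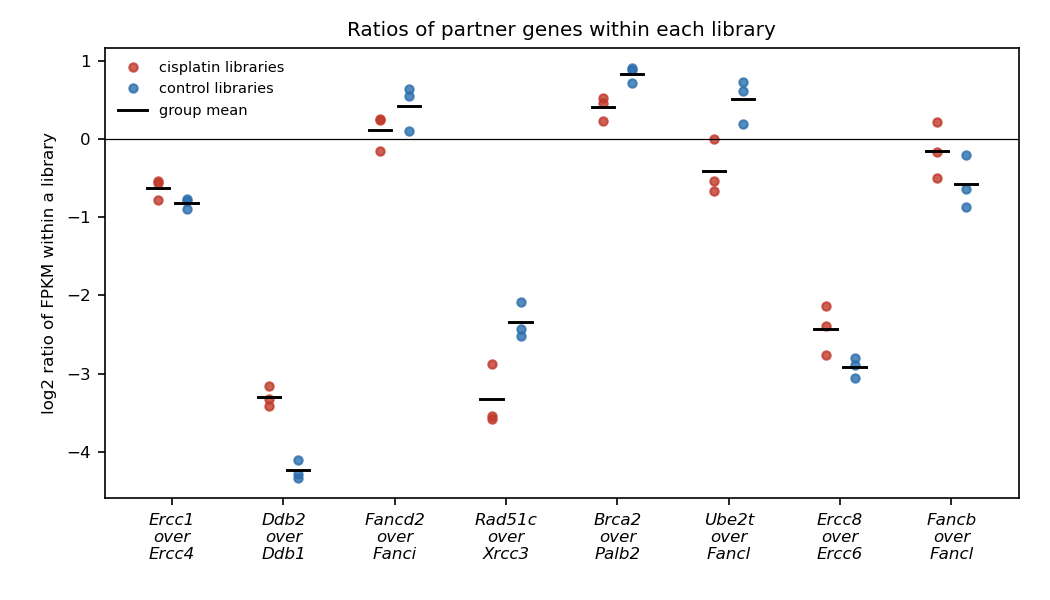
Log2 ratio of the FPKM of 2 partner genes within each library for 8 pairs, each point a library, for the cisplatin and control groups, with bars at the group means. Ddb2 over Ddb1 was higher in every cisplatin library, and Rad51c over Xrcc3, Brca2 over Palb2 and Ube2t over Fancl were lower in every cisplatin library than in every control.

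Other genes of the same pathways were taken as whole lists. Of 71 related repair genes tested (72 listed), 23 were higher, 16 lower and 32 did not pass, with a median log2 fold change of 0.05, beside 27.5% higher and 29.0% lower among all tested genes. The counts moved with the scaling, to 35 higher and 13 lower after quantile normalization and to 57 lower after centring on T-cell genes. Of all 15874 tested genes, 5884 were higher and 3841 lower after quantile normalization, and 10575 were lower after centring. These counts over all genes also stand beside those of the single lists below. After centring, the rises given below for members of these lists became −0.14 to 0.14. The further Fanconi and crosslink genes (14) had 7 higher and 2 lower as deposited, a median of 0.21, and 10 lower after centring on T-cell genes. The largest were Eme1, a subunit of a structure-specific nuclease (0.73, limma adjusted p = 0.011), Dclre1b, the Apollo nuclease (0.69, adjusted p = 0.0027), and the core complex member Faap100, which fell (−0.61, adjusted p = 0.0031). FAAP100 sits in the catalytic module with FANCB and FANCL, whose genes rose as deposited.

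Of 26 further recombination genes, 8 rose and 4 fell as deposited (median 0.14), 14 were higher and 3 lower after quantile normalization and 18 were lower after centring on T-cell genes. The largest that passed as deposited were the motor proteins Rad54l at 0.51 and Rad54b at −0.79, and Rmi2 at 0.48 (limma adjusted p = 0.0047, 0.0061 and 0.0029). Of 19 further excision genes, 5 rose and 7 fell (median −0.07, but 0.12 after quantile normalization and 0.02 after rescaling by reads on genes). After centring on T-cell genes their median was −0.65, with 0 higher and 18 lower. Rad23b, the stabilising partner of XPC, had 32.1, 34.97 and 31.5 FPKM in the cisplatin libraries against 106, 111 and 107 FPKM in the controls. That log2 fold change of −1.72 (limma adjusted p = 4.7e-07) was the largest among the 71 genes, and the 1 that passed 2-fold. The TFIIH subunits Gtf2h1 and Mnat1 had 0.44 and −0.42 (limma adjusted p = 3.9e-05 and 0.0084). Of 12 translesion genes tested, 3 rose and 3 fell (median −0.00, between −0.59 and 0.08 under the other scalings), led by Mad2l2, the REV7 partner of REV3L, at −0.59, the primase-polymerase Primpol at −0.50 and polymerase theta, Polq, at 0.45 (limma adjusted p = 0.0016, 0.0024 and 0.036). So Rev3l and Mad2l2, both subunits of polymerase zeta, had opposite signs as deposited, and were −0.15 and −1.17 after centring.

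Lists of the S phase and mitosis and of the damage checkpoint held a larger share of higher genes than the repair genes did as deposited. It was 65% and 68.8%, beside 27.5% of all tested genes, of which 29.0% were lower. After centring on T-cell genes the medians of these lists turned to −0.32 and −0.33, with 2 of 20 and 1 of 16 genes still higher. Then 14 and 11 of their genes were lower, beside 10575 of all 15874 tested genes. Of 20 S-phase and mitosis genes, 13 were higher and 1 lower (median 0.26), led by the ribonucleotide reductase subunit Rrm2 at 1.05, cyclin E1, Ccne1, at 0.82, and the origin licensing factor Cdc6 at 0.72 (limma adjusted p = 1.3e-05, 0.00017 and 0.00019). Of 16 checkpoint genes, 11 were higher and 1 lower (median 0.26). Atm, the double-strand break kinase, had 22.1, 22.3 and 22.7 FPKM against 13.2, 12.3 and 12.5 FPKM, a log2 fold change of 0.81 (limma adjusted p = 6.0e-06). Clspn, the adaptor of CHK1 activation, had 0.68, and Rpa2, which coats single-stranded DNA, had 0.61 (limma adjusted p = 0.00088 and 8.5e-05). After centring, Rrm2 (0.46), Ccne1 (0.24) and Atm (0.23) still passed. Cdc6 (0.14), Clspn (0.10) and Rpa2 (0.03) no longer did (limma adjusted p = 0.17, 0.4 and 0.67). The difference between these lists and the repair genes was not tested.

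**Figure D5:**
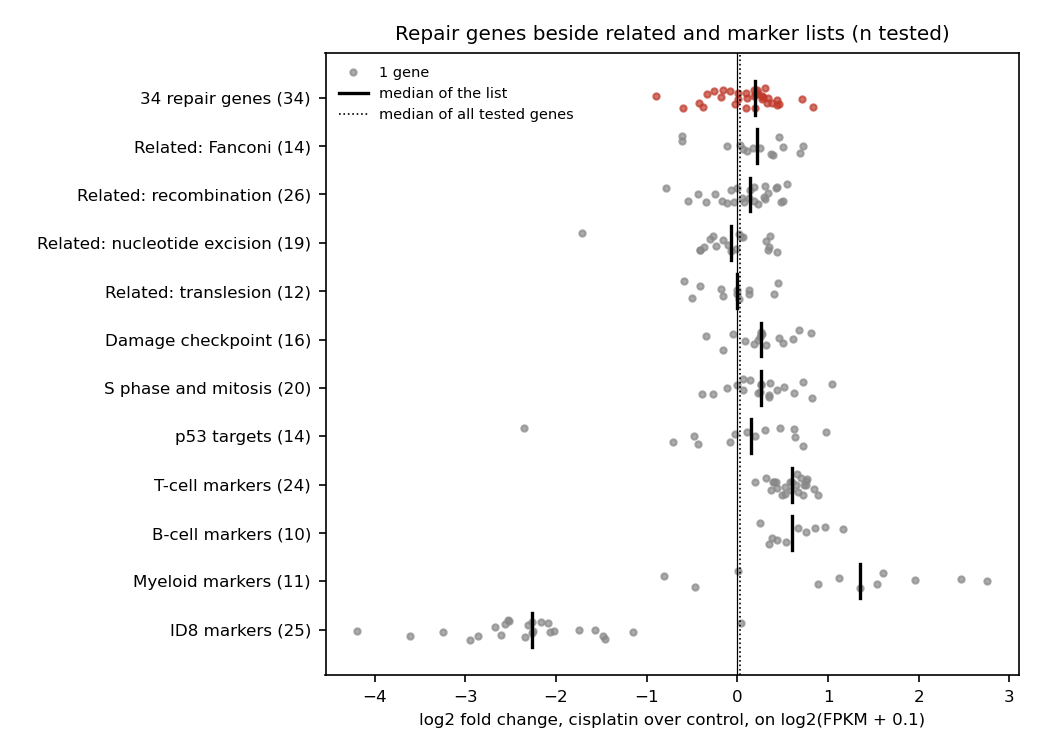
Log2 fold change (cisplatin over control, FPKM as deposited) of each tested gene in the repair, related, cell-cycle and cell-marker lists, with the median of each list. The repair genes centre at 0.19 (−0.39 when centred on T-cell genes), the ID8 markers at −2.27 and the T-cell identity genes at 0.60.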

How the data were processed

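RNA was extracted with TRIzol and poly-A selected, and 6 libraries (3 per group, grouped by their labels) were analysed. The authors deposited FPKM values per gene. The submitters' processing notes name fastp, HISAT2 2.0.5, featureCounts 1.5.0-p3 and mm10, whereas the study's methods name LifeScope for alignment and counting. Sequencing strand was not given in the sources used here. Multiplied by gene length, the deposited FPKM gave whole reads (within 0.1 of a read), from which depth was computed. These reads were used for depth, for the reads behind each gene, for comparing replicates and for an alternative (voom), and not for the reported test, since FPKM are not counts.

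Coordinates are those of the table, and 33 of the 34 genes had the same coordinates and exon length in GENCODE M21 (GRCm38), the exception being Ddb1. Of the 34, 17 share exon bases with a gene on the other strand. Genes whose mean over the 6 libraries reached 0.5 FPKM (15874) were fitted with limma 3.58.1 (R 4.3.3, moderated test with a variance trend) on log2(FPKM + 0.1), which understates changes of low genes, with Benjamini-Hochberg adjustment over all of them. A gene changed at adjusted p under 0.05 and was called at 2-fold or more. The script was first tested on simulated data. Tables and plots were made with Python 3.11.15, numpy 2.4.6, pandas 2.3.3, scipy 1.17.1 and matplotlib 3.10.9. Libraries of a group differed by more than sampling noise (chi-square per degree of freedom 5.35 to 6.44), so none looked like a library deposited again, which does not show from what they were made.

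The members and lists were chosen with earlier results of these data known. All 34 members could be named, and of each other list the 3 genes with the largest absolute log2 fold change among those passing, besides defining markers of cell types. Alternatives covered the pseudocount, the filter, 5 scalings, the variance trend, the gene set, voom, the replicate block and leaving out each library. Some results that the naming rule would give are not reported here.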

Additional observations from a re-analysis of the deposited data

How the results depend on the processing

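Over 19 alternative settings and 626 values, 523 kept their direction and side of the threshold, 54 newly passed, 13 no longer passed and 36 changed sign. Ddb1, Fance and Rad51c were lower and passed in every setting in which they were tested, with log2 fold changes of −1.19 to −0.52, −0.96 to −0.25 and −1.49 to −0.52. The count of 9 higher genes became 5 with a minimum mean of 5 FPKM (14 members left), 21 after quantile normalization, 20 with voom, 16 after rescaling by reads on genes (chosen after seeing the data) and 0 when centred on T-cell identity genes. Of all tested genes, 3156 of 8422 were higher at that minimum, 5884 of 15874 after quantile normalization and 5879 of 18541 with voom. After rescaling 5305 of 15874 were higher, and when centred 732. The count of 3 lower genes became 24 when centred and 5 among protein-coding genes alone, where fewer genes were tested. Of all tested genes, 10575 of 15874 were lower when centred, and 4490 of 12057 among protein-coding genes. At 2-fold, 1 gene was called higher after quantile normalization and 3 lower when centred. Leaving out each library gave 7 to 10 higher and 3 to 4 lower genes and 0 to 1 called lower at 2-fold, the 1 being Rad51c (−1.06) without cisplatin replicate 2. Centring moves every gene by −0.58, so its counts follow from that shift. The cause of the other moves was not tested.

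When centred, the values turned negative for Ercc3 (−0.30), Xpa (−0.49), Ddb2 (−0.25), Rev3l (−0.15), Xrcc3 (−0.58), Fancg (−0.40), Slx4 (−0.12), Ercc4 (−0.39), Ercc5 (−0.49), Ercc2 (−0.36), Brca1 (−0.38), Ercc1 (−0.20), Ercc6 (−0.26), Rev1 (−0.40), Fancd2 (−0.58), Fan1 (−0.37), Fanca (−0.48), Fanci (−0.28), Brip1 (−0.31), Fancm (−0.31), Fancl (−0.14) and Palb2 (−0.36). Values near 0 changed sign for Xpc (0.033), Polh (0.15) and Fancc (0.015) after quantile normalization, for Xrcc3 (−0.0175) and Fancd2 (−0.017) as TPM, and for Polh with voom (0.063) and after rescaling (0.061). Leaving out libraries gave −0.059 to 0.055 for Xrcc3, −0.0655 to 0.065 for Polh and −0.040 to 0.045 for Fancd2. With a replicate block, 8 genes were higher and 3 lower, and Ercc4 no longer passed. Deviations of same-numbered libraries correlated at 0.02, −0.06 and −0.02, so no deviation shared by number was seen. That cannot tell whether same-numbered samples were prepared together. The standard error was largest for Ercc8, Rad51c and Fancb (0.26, 0.20 and 0.19), with 100 to 280, 96 to 236 and 86 to 232 reads per library. Fancf, with 102 to 145 reads, had 0.13, so read number alone did not set it.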

Other observations

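Targets of p53 were measured beside the crosslink repair genes. Of 14 p53 targets, 7 rose and 4 fell as deposited (median 0.15), beside 27.5% higher and 29.0% lower among all tested genes. After centring on T-cell identity genes, 1 was higher and 9 lower (median −0.44). Of all 15874 tested genes, 732 were higher and 10575 lower after that centring. Gadd45a, a growth arrest gene, had 3.35 ± 0.685 FPKM in the cisplatin group and 17.3 ± 0.610 FPKM in the controls (SD, n = 3), a log2 fold change of −2.35 (limma adjusted p = 1.3e-05). Aen, an exonuclease gene, rose by 0.98 and Gtse1, a gene of the late cell cycle, by 0.73 (limma adjusted p = 7.7e-05 and 6.4e-05). After centring, Aen still passed at 0.40 (limma adjusted p = 0.0051) and Gtse1 no longer passed at 0.14 (limma adjusted p = 0.11).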
